A study of Homo sapiens with 8 samples.

Results

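RNA without immunoprecipitation was compared between mitotic and interphase cells of hTERT-RPE1. This human line comes from the pigmented layer behind the retina and was immortalized with telomerase. The comparison asks which cell-cycle, stress and metabolic transcripts differ in level. The members are the 4 libraries made without immunoprecipitation (IP), 2 of interphase and 2 of mitosis, of the 8 libraries of a study of RNA bound by the nuclear protein hnRNP U. The interphase group spent 24 h in 2 mM thymidine before harvest. Mitotic cells received the same 2 mM thymidine for 24 h, were then released into thymidine-free medium for 6 h, and were left overnight in S-trityl-L-cysteine (STLC), which blocks the spindle motor Eg5. Thymidine in excess stalls DNA replication, so both groups passed through the same block and differed in release, in STLC and in the time in culture. Cell-cycle phase, drug and time therefore cannot be told apart in this comparison. How the mitotic cells were collected is not stated in the sources used here. Nor is it stated whether the libraries without IP came from whole cells or from cleared lysate. Whether the 2 replicates of a group were separate cultures is not stated either. The p-values below therefore measure the spread between these libraries, which may be technical.

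Cells that enter mitosis carry large amounts of transcripts for cyclin B, its kinase CDK1, the spindle motors and the kinetochore, which accumulate through G2 and whose promoters are known targets of the DREAM, B-MYB and FOXM1 complexes. Transcripts of replication origin licensing and of nucleotide supply are instead induced by E2F factors at the G1/S boundary. During mitosis transcription by RNA polymerase II is largely shut down, so short-lived messengers are not replaced at the interphase rate while long-lived messengers persist.

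Gene coordinates are those of the deposited gene table (hg38). All values are FPKM, fragments per kilobase of transcript scaled to the mapped fragments of the library, as deposited, and each is a relative measure within its library. Fewer cells that hold a transcript and less of it per cell cannot be told apart in such bulk samples. Fold changes are log2(FPKM + 1) in mitosis minus that in interphase, a scale that understates the change of transcripts near or under 1 FPKM. A transcript is called changed at a Benjamini-Hochberg adjusted p below 0.05 in limma, over all features of the table. Replicates of a group correlated at Pearson's r of 0.995 in interphase and 0.994 in mitosis across the 13471 genes of the gene table, against 0.929 to 0.933 between groups. The 10 highest genes took 58.4% to 63.0% of the FPKM sum of a library. The number of fragments is not given in the sources used here, but low values lie on common steps, from which depth relative to the first interphase library was 0.839 in the second, and 0.861 and 1.083 in the mitotic libraries. Of 21 symbols listed for retinal pigment epithelium, epithelium in general and the immortalizing gene TERT, 10 were measured. The other 11 were not found in the gene table. Among them were RPE65, BEST1, TYR, CDH1 and EPCAM, and RLBP1, which was also listed under its other name CRALBP. MITF, a pigment cell transcription factor, was at 9.58 and 9.6 FPKM in interphase and 9.44 and 7.06 FPKM in mitosis. KRT18, a keratin of simple epithelia whose interval overlaps another gene, was at 69.6 and 79.2 FPKM in interphase and 35.9 and 42.1 FPKM in mitosis. The pigment cell genes PMEL and LRAT were under 1 FPKM in each library, with the highest value 0.192 FPKM for LRAT. Of 20 markers of other cell types 2 were measured, CD68 at 10.5 to 12.2 FPKM and the neuronal gene SYP at 0.0267 to 0.207 FPKM, and their part in the results was not tested.

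In the gene table, 3768 genes (28.0%) were called higher in mitosis and 3626 (26.9%) lower, so 54.9% of all genes passed the test. These shares are the background against which each list of genes below is read. The lists were chosen with earlier results of these data known, and their subgroups after seeing them. The shares of a list are therefore a description and not a test. Calls with a change of at least 1 on the log2 scale numbered 842 higher (6.25%) and 626 lower (4.65%). Quartiles of the log2 fold change stood at -0.37 and 0.38. Both mitotic libraries lay above both interphase libraries in 39.5% of genes and below them in 39.4%. Each of the 7394 calls pointed the same way in the libraries numbered 1 as in those numbered 2. The calls were made from these same 4 libraries, which largely fixes that agreement, so it is no separate support. Among the lists, those of mitotic genes and snoRNAs stood highest, and histone genes, cholesterol synthesis and oxidative phosphorylation stood lowest by their medians.

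**Figure D1:**
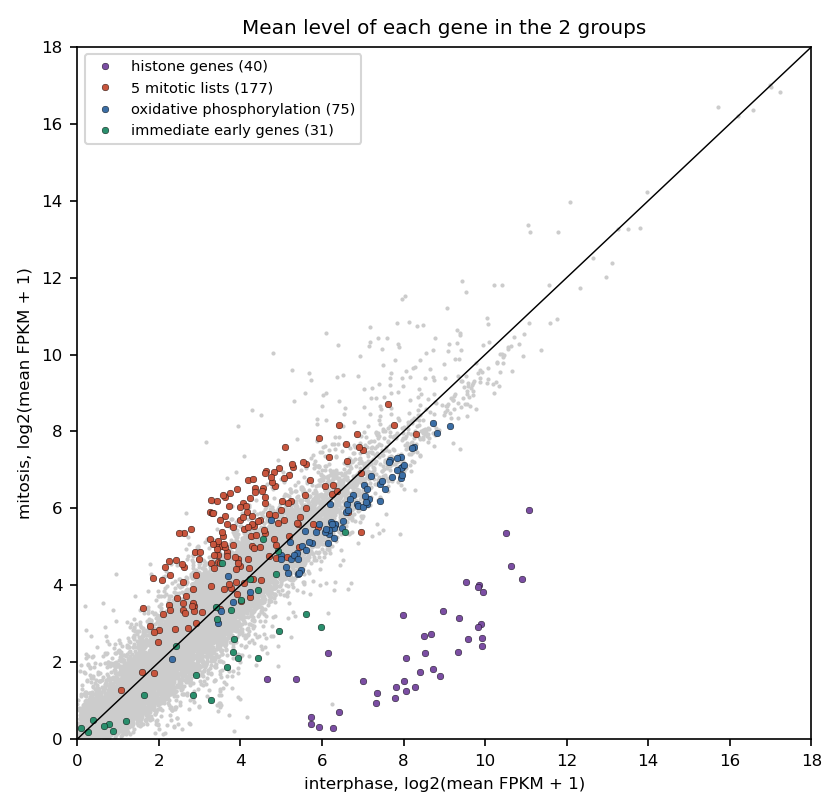
Mean level of each of the 13471 genes in interphase (x axis) and mitosis (y axis), as log2(mean FPKM + 1) of 2 libraries each, with 4 groups of genes coloured and the line of equal level drawn. The 40 histone genes form a separate cloud far below the line, the 177 mitotic genes lie mostly above it, and the 75 oxidative phosphorylation genes lie in a narrow band just under it.

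**Figure D2:**
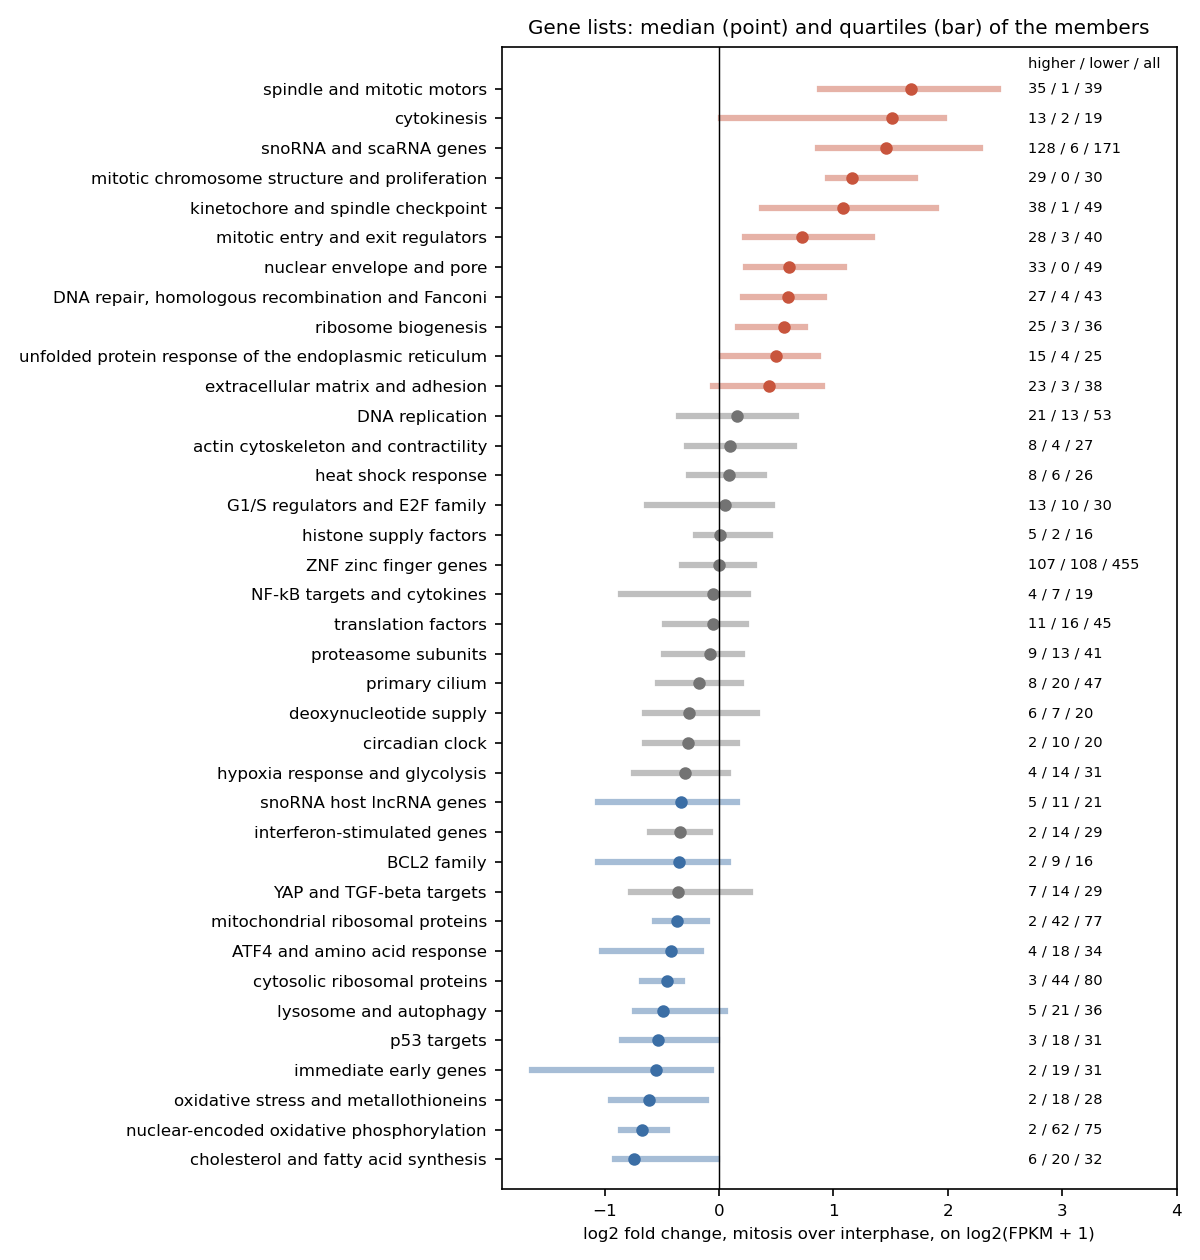
Median (point) and quartiles (bar) of the log2 fold change of the members of 37 gene lists, with the numbers called higher, called lower and measured at the right; histone genes, at a median of -6.13, are left out for scale. Red marks lists with over 50% of members called higher, blue those with over 50% called lower. Spindle and motor genes have the highest median at 1.68, and cholesterol and fatty acid synthesis the lowest at -0.74.

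Most mitotic transcripts were higher in mitosis. Over 5 lists combined (entry and exit regulators, kinetochore and checkpoint, spindle and motors, cytokinesis, chromosome structure), 143 of 177 genes (80.8%) were called higher and 7 (3.95%) lower, at a median of 1.17 on the log2 scale. Among regulators of mitotic entry and exit, 28 of 40 measured members were called higher and 3 lower, with a median of 0.73. The members' median level was 19.8 and 19.4 FPKM in the interphase libraries and 35.7 and 38.1 FPKM in the mitotic ones. CDK1 (chr10:60778331-60794852), the kinase that drives entry into mitosis, was at 61.3 and 57.6 FPKM in interphase and 225 and 227 FPKM in mitosis (log2 fold change 1.91, SE 0.099, limma adjusted p = 4.95e-05). Its partner CCNB1, cyclin B1 (chr5:69167010-69178245), was at 33.7 and 29.1 FPKM in interphase and 68.8 and 76.2 FPKM in mitosis (log2 fold change 1.18, SE 0.11, limma adjusted p = 0.000389). CCNA2, cyclin A2, was at 48.6 and 46.5 FPKM in interphase and 129 and 155 FPKM in mitosis (log2 fold change 1.55, SE 0.12, limma adjusted p = 0.00019), although its interval in the file overlaps that of another gene, so reads of the 2 could be mixed. In each of these genes both mitotic libraries lay above both interphase libraries by far more than the replicates differed.

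Kinases and the activator of anaphase are given next. AURKA (chr20:56369389-56392337), the centrosomal Aurora kinase, was at 33.4 and 32.3 FPKM in interphase and 179 and 207 FPKM in mitosis (log2 fold change 2.51, SE 0.11, limma adjusted p = 2.88e-05), the largest fold change of the list. NEK2, a kinase of centrosome separation, went from 19.9 and 19.02 to 86.6 and 94.7 FPKM (log2 fold change 2.16, SE 0.096, limma adjusted p = 3.06e-05). PLK1 (chr16:23677656-23690367), the Polo-like kinase of entry and exit, was at 13.9 and 15.6 FPKM in interphase and 54.4 and 47.7 FPKM in mitosis (log2 fold change 1.72, SE 0.11, limma adjusted p = 0.000108). CDC20 (chr1:43358955-43363203), the activator of the anaphase-promoting complex and the target of the spindle checkpoint, was at 26.6 and 29.1 FPKM in interphase and 90.5 and 98.3 FPKM in mitosis (log2 fold change 1.73, SE 0.1, limma adjusted p = 7.66e-05). The complex itself followed less evenly, as 5 of its 11 listed subunits were called higher and 1 lower, with a median of 0.25. The list's lowest member, ENSA, a substrate of the Greatwall kinase and inhibitor of the phosphatase PP2A-B55, fell from 101.29 and 96.97 to 61.05 and 56.7 FPKM (log2 fold change -0.74, SE 0.097, limma adjusted p = 0.00113).

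**Figure D3:**
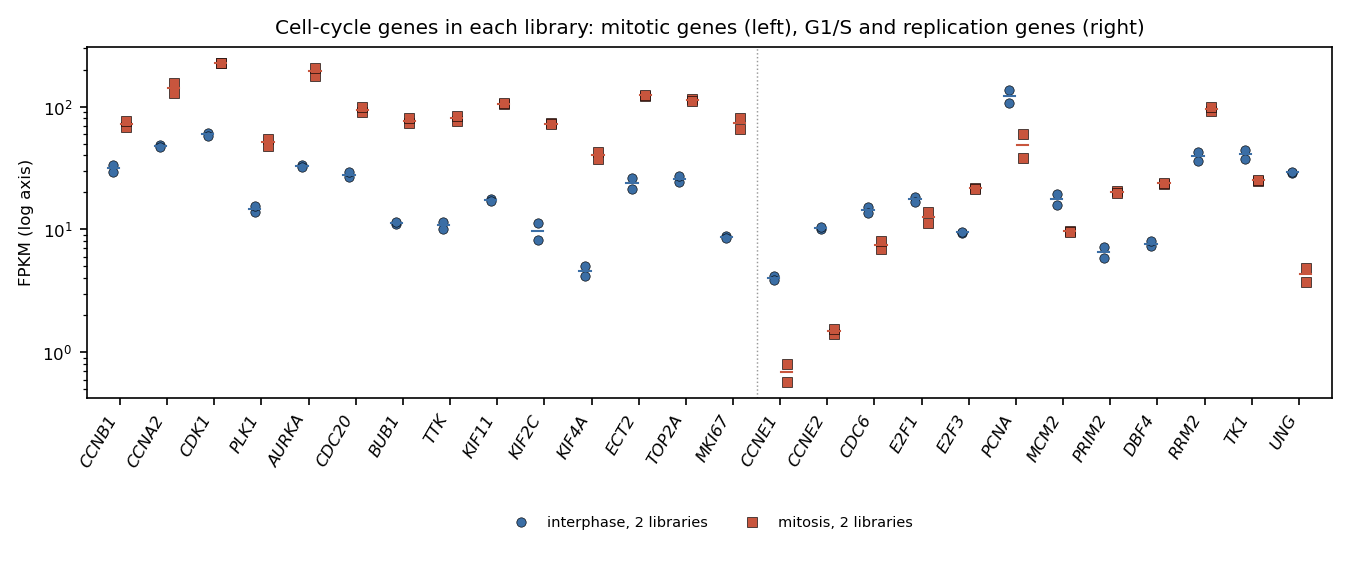
FPKM of 26 cell-cycle genes in each library on a log axis, with interphase as blue circles, mitosis as red squares and a short line at each group's mean. The mitotic genes to the left of the dotted line are all higher in mitosis, while the G1/S and replication genes to its right split, with CCNE1, CCNE2, PCNA and UNG lower and E2F3, PRIM2, DBF4 and RRM2 higher.

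Promoters of mitotic genes are known for a cell cycle homology region (CHR, TTTGAA or TTCGAA) placed close to the start site, often a few turns of the helix downstream of CCAAT boxes. Stretches of 250 bases before the RefSeq start site (GRCh38.p14) of 3 genes that rose are shown 5′ to 3′ because they carry both elements, in capitals, on either strand.
KIF11, chr10:92592880-92593129, plus strand: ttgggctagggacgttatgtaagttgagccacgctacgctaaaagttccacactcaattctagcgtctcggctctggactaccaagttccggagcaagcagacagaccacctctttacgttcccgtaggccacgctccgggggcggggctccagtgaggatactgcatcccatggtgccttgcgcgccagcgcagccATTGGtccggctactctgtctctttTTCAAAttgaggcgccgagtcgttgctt
PLK1, chr16:23678639-23678888, plus strand: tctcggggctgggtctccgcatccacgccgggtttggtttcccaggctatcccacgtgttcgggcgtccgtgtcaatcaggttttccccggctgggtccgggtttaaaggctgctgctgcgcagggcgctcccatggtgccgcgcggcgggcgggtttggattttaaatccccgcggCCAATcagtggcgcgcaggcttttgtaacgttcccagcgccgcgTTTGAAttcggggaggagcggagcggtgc
CDC20, chr1:43358731-43358980, plus strand: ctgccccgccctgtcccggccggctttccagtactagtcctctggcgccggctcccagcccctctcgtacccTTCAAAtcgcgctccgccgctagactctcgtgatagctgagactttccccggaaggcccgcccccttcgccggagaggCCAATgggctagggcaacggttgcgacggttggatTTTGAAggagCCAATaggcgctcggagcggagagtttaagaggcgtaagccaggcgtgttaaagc
The CHR word begins 28 bases before the start site in KIF11, 29 in PLK1, and 65 and 178 in CDC20. The CCAAT box begins 53 bases before it in KIF11, 73 in PLK1, and 55 and 100 in CDC20. The words were searched for independently, so matches of different words may overlap.

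The words were counted in promoter windows from 250 bases before to 50 after the start site, on both strands. A CHR word was in 54.3% of the 151 mitotic genes with a promoter in the RefSeq table, in 62.0% of the 121 of them called higher, in 11.5% of the 10622 genes of the gene table with a promoter, and in 16.6% of all 27305 promoters. A CCAAT box was in 60.9% of the mitotic genes, in 37.1% of genes of the gene table and in 35.7% of all promoters. Both were in 38.4% of the mitotic genes, in 44.6% of those called higher and in 4.91% of genes of the gene table. These are matches of letters and say nothing of whether a factor was bound.

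Kinetochore and spindle checkpoint genes showed some of the largest changes. In this list 38 of 49 measured members were called higher and 1 lower, at a median of 1.08 and a median level of 15.4 and 13.9 FPKM in the interphase libraries and 31.8 and 35.5 FPKM in the mitotic ones. TTK, the kinase MPS1 that starts checkpoint signalling, was at 11.5 and 10.1 FPKM in interphase and 77.02 and 83.5 FPKM in mitosis (log2 fold change 2.78, SE 0.11, limma adjusted p = 1.55e-05). BUB1, the kinase that marks the inner centromere, was at 11.1 and 11.5 FPKM in interphase and 73.3 and 80.6 FPKM in mitosis (log2 fold change 2.66, SE 0.096, limma adjusted p = 1.22e-05). BUB1B, the checkpoint protein BUBR1, went from 14.2 and 10.8 to 84.6 and 83.6 FPKM (log2 fold change 2.67, SE 0.13, limma adjusted p = 4.32e-05). The 3 checkpoint genes thus stood close together in size of change, and none had overlapping groups. Centromere genes with CENP names had 9 of 14 members called higher and none lower, with a median of 0.80. DSN1, a subunit of the MIS12 kinetochore complex, was the only member called lower (from 16.1 and 14.4 to 9.66 and 12.4 FPKM; log2 fold change -0.44, SE 0.14, limma adjusted p = 0.0339). That call was lost without interphase replicate 1 (limma adjusted p = 0.15), without mitosis replicate 1 (0.133) and without interphase replicate 2 (0.0565).

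Spindle genes had the highest median of any list, 1.68, as 35 of 39 measured members were called higher and 1 lower. All 14 kinesins of the list were called higher, with a median of 2.47. KIF11 (chr10:92593286-92655395) encodes Eg5, the motor that STLC inhibits, and was at 17.6 and 16.9 FPKM in interphase and 104 and 107 FPKM in mitosis (log2 fold change 2.55, SE 0.09, limma adjusted p = 1.09e-05). KIF2C, the microtubule depolymerase MCAK of the centromere, was at 11.3 and 8.2 FPKM in interphase and 73.6 and 71.6 FPKM in mitosis (log2 fold change 2.79, SE 0.15, limma adjusted p = 4.99e-05). KIF14, a motor of the central spindle, went from 5.61 and 4.58 to 39.9 and 40.9 FPKM (log2 fold change 2.77, SE 0.12, limma adjusted p = 2.38e-05). KIF4A, a chromokinesin, had the largest change of the list, at 5.03 and 4.17 FPKM in interphase and 42.4 and 37.7 FPKM in mitosis (log2 fold change 2.88, SE 0.12, limma adjusted p = 2.47e-05), but a near-identical copy, KIF4B, may share its reads. TUBA1C, an alpha-tubulin gene with close paralogs, was the only member called lower and went from 132 and 117 to 41.8 and 39.7 FPKM (log2 fold change -1.58, SE 0.1, limma adjusted p = 0.000116).

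Genes of cytokinesis and of mitotic chromosomes followed. In the cytokinesis list 13 of 19 measured members were called higher and 2 lower, with a median of 1.51. ECT2, the exchange factor that activates RhoA at the division plane, was at 26.3 and 21.2 FPKM in interphase and 122 and 125 FPKM in mitosis (log2 fold change 2.34, SE 0.12, limma adjusted p = 4.9e-05). ANLN, the scaffold anillin, went from 27.4 and 27.2 to 124 and 120.0 FPKM (log2 fold change 2.12, SE 0.09, limma adjusted p = 2.62e-05), with an interval that overlaps another gene. ARHGAP11A, a GTPase-activating protein with a near-identical copy in ARHGAP11B, went from 24.9 and 22.1 to 118 and 123 FPKM (log2 fold change 2.32, SE 0.1, limma adjusted p = 2.88e-05). CHMP1B, an ESCRT-III component whose interval also overlaps another gene, was called lower (from 19.3 and 16.5 to 13.3 and 10.5 FPKM; log2 fold change -0.55, SE 0.14, limma adjusted p = 0.0141), a call lost without interphase replicate 1 (limma adjusted p = 0.0772) and without mitosis replicate 2 (0.0515).

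Of the chromosome structure and proliferation genes, 29 of 30 were called higher and 0 lower, with a median of 1.16. All 8 condensin genes and all 8 cohesin genes were among them, with medians of 1.41 and 1.07. MKI67 (chr10:128096659-128126385), which encodes the Ki-67 coat protein of mitotic chromosomes, was at 8.81 and 8.55 FPKM in interphase and 80.4 and 65.4 FPKM in mitosis (log2 fold change 2.93, SE 0.12, limma adjusted p = 2.24e-05), the largest change in the 5 mitotic lists. TOP2A, topoisomerase II alpha, which untangles sister chromatids, was at 24.5 and 27.5 FPKM in interphase and 114 and 111 FPKM in mitosis (log2 fold change 2.08, SE 0.1, limma adjusted p = 3.97e-05). CDCA2, the chromatin-bound phosphatase partner Repo-Man, went from 14.03 and 10.4 to 64.2 and 68.4 FPKM (log2 fold change 2.36, SE 0.14, limma adjusted p = 8.77e-05).

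The G1/S and replication genes were called in both directions. Over the lists of G1/S regulators, DNA replication and deoxynucleotide supply, 40 of 103 genes (38.8%) were called higher and 30 (29.1%) lower, with a median of 0.05. The share called lower is near the 26.9% of all genes. Cyclin E fell. CCNE1 (chr19:29811898-29824308), the cyclin that starts S phase with CDK2, was at 4.21 and 3.84 FPKM in interphase and 0.573 and 0.804 FPKM in mitosis (log2 fold change -1.58, SE 0.12, limma adjusted p = 0.000172). CCNE2 went from 10.1 and 10.5 to 1.42 and 1.54 FPKM (log2 fold change -2.18, SE 0.11, limma adjusted p = 4.5e-05), with an interval that overlaps another gene. CDC6, which loads the replicative helicase on origins, was at 15.3 and 13.7 FPKM in interphase and 6.88 and 7.99 FPKM in mitosis (log2 fold change -0.88, SE 0.12, limma adjusted p = 0.00126). E2F1, the transcription factor of the G1/S programme, was at 18.3 and 16.9 FPKM in interphase and 13.9 and 11.4 FPKM in mitosis (log2 fold change -0.45, SE 0.12, limma adjusted p = 0.02). The call for E2F1 was lost without interphase replicate 1 (limma adjusted p = 0.0975), without mitosis replicate 2 (0.0759) and once trends with length and GC content of transcripts were taken out (0.179).

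Other members of the same family were higher. E2F3 was at 9.39 and 9.51 FPKM in interphase and 21.6 and 21.5 FPKM in mitosis (log2 fold change 1.11, SE 0.094, limma adjusted p = 0.000269). RBL1, the pocket protein p107 that holds E2F factors in check, was at 6.86 and 6.39 FPKM in interphase and 14.6 and 15.8 FPKM in mitosis (log2 fold change 1.08, SE 0.11, limma adjusted p = 0.000425). E2F5, a repressive E2F whose interval overlaps another gene, went from 6.12 and 5.71 to 13.6 and 15.1 FPKM (log2 fold change 1.15, SE 0.11, limma adjusted p = 0.000398). In all, 13 of 30 measured members were called higher and 10 lower. The number called higher was 8 after median centring and 8 without interphase replicate 1, without interphase replicate 2 or without mitosis replicate 2.

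Among replication genes 21 of 53 measured members were called higher and 13 lower, with a median of 0.16. The number called lower was 7 without interphase replicate 1 and 8 without mitosis replicate 1, and the median was 0.07 without mitosis replicate 2. PCNA (chr20:5114953-5126626), the sliding clamp of the replication fork, was at 135 and 108 FPKM in interphase and 38.2 and 59.3 FPKM in mitosis (log2 fold change -1.32, SE 0.21, limma adjusted p = 0.00244). MCM2, a subunit of the replicative helicase, was at 19.4 and 15.9 FPKM in interphase and 9.79 and 9.58 FPKM in mitosis (log2 fold change -0.80, SE 0.12, limma adjusted p = 0.00195), and of MCM2 to MCM7, 3 of 6 were called lower and 0 higher. The origin recognition complex had 3 of 6 genes called higher and 0 lower. The largest rises were those of DBF4, PRIM2 and TICRR. DBF4, the activator of the origin-firing kinase CDC7, went from 7.34 and 8.02 to 23.4 and 23.9 FPKM (log2 fold change 1.51, SE 0.099, limma adjusted p = 0.000116). PRIM2, the large primase subunit, went from 7.25 and 5.81 to 20.4 and 19.6 FPKM (log2 fold change 1.48, SE 0.12, limma adjusted p = 0.000254). TICRR, the origin-firing factor Treslin, went from 1.49 and 1.83 to 6.55 and 5.39 FPKM (log2 fold change 1.39, SE 0.14, limma adjusted p = 0.000428). The intervals of DBF4 and TICRR overlap other genes.

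In deoxynucleotide supply, 6 of 20 measured members were called higher and 7 lower. The number called higher was 3 without interphase replicate 2 and 3 without mitosis replicate 2, and the median, -0.26, was -0.13 without mitosis replicate 1. UNG (chr12:109097574-109110992), the glycosylase that removes uracil from DNA, was at 29 and 29.2 FPKM in interphase and 3.74 and 4.88 FPKM in mitosis (log2 fold change -2.51, SE 0.13, limma adjusted p = 4.63e-05), the deepest fall of the list. TK1, thymidine kinase, which salvages the thymidine used for the block, was at 44.1 and 37.4 FPKM in interphase and 24.9 and 25.2 FPKM in mitosis (log2 fold change -0.68, SE 0.11, limma adjusted p = 0.00248); its limma adjusted p was 0.0665 once length and GC trends were removed. IMPDH2, the enzyme that commits purine synthesis to guanine nucleotides, went from 94.6 and 95.3 to 41.6 and 49.99 FPKM (log2 fold change -1.04, SE 0.11, limma adjusted p = 0.000624). SLC29A1, a nucleoside transporter, went from 38.6 and 33.1 to 19.5 and 14.4 FPKM (log2 fold change -1.05, SE 0.15, limma adjusted p = 0.00176). RRM2 (chr2:10120698-10131419), the small subunit of ribonucleotide reductase, moved the other way, at 42.5 and 36.3 FPKM in interphase and 91.8 and 100.03 FPKM in mitosis (log2 fold change 1.27, SE 0.11, limma adjusted p = 0.000325). TYMS, thymidylate synthase, was at 49.7 and 54.3 FPKM in interphase and 61.8 and 69.6 FPKM in mitosis (log2 fold change 0.33, SE 0.11, limma adjusted p = 0.0352). It shares its interval with another gene and lost its call without interphase replicate 1 (limma adjusted p = 0.174), interphase replicate 2 (0.0648) or mitosis replicate 2 (0.13), and after median centring (0.0959).

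A pair of the E2F-regulated genes named above are shown by the 250 bases before their start sites because both carry E2F words (TTTCCCGC, TTTCGCGC, TTTGCCGC or TTTGGCGC, on either strand, in capitals), while their transcripts went in opposite directions. The fall of E2F1 was small, at -0.45, and was -0.18 and not called with length and GC trends removed.
E2F1, chr20:33686386-33686635, minus strand: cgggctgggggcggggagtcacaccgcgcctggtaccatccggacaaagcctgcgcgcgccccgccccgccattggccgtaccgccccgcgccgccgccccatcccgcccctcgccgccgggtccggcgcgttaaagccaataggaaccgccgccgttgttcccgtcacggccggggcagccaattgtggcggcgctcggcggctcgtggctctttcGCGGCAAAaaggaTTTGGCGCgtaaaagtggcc
RBL1, chr20:37095998-37096247, minus strand: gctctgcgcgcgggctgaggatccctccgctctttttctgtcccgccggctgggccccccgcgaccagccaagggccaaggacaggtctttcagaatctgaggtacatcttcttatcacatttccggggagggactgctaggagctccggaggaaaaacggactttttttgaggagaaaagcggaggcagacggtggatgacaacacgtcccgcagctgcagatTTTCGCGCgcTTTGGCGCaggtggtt
The E2F words begin 33 and 20 bases before the start site in E2F1, and 26 and 16 bases before it in RBL1. In the windows from 250 bases before to 50 after the start site, such a word was in 33.7% of the 86 replication genes with a promoter and in 5.5% of genes of the gene table. It was in 15 of 35 replication genes called higher (42.9%) and in 5 of 23 called lower (21.7%).

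Homologous recombination and Fanconi anaemia genes, which repair interstrand crosslinks and broken forks, were mostly higher. Here 27 of 43 measured members were called higher and 4 lower, with a median of 0.60. Without interphase replicate 1, 2 were called lower. FANCD2, the protein that is monoubiquitinated at stalled forks, was at 3.46 and 3.36 FPKM in interphase and 14.6 and 13.96 FPKM in mitosis (log2 fold change 1.79, SE 0.11, limma adjusted p = 7.86e-05). FANCA and FANCI, whose intervals overlap other genes, had log2 fold changes of 1.69 and 1.51. FANCF, a small intronless member of the core complex, went from 3.57 and 3.81 to 1.26 and 0.877 FPKM (log2 fold change -1.19, SE 0.13, limma adjusted p = 0.000563).

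All 40 replication-dependent histone genes measured were called lower, at a median of -6.13 and a median level of 361 and 369 FPKM in the interphase libraries and 3.53 and 3.72 FPKM in the mitotic ones. These messengers end in a stem-loop in place of a poly(A) tail and are degraded when replication ends. HIST1H3H, the deepest, was at 953 and 996 FPKM in interphase and 4.96 and 3.81 FPKM in mitosis (log2 fold change -7.51, SE 0.13, limma adjusted p = 3.15e-07), and HIST1H2BG went from 473 and 475 to 2.42 and 1.77 FPKM. HIST1H3C went from 985 and 953 to 4.81 and 5.66 FPKM. Near-identical copies among these genes make the value of each uncertain. For the factors that supply and process histone transcripts, 5 of 16 measured members were called higher and 2 lower, with a median of 0.01. The number called higher was 3 without interphase replicate 2, and 4 were called lower after quantile normalization. SLBP, the stem-loop binding protein, was at 39.8 and 40.9 FPKM in interphase and 25.2 and 23.7 FPKM in mitosis (log2 fold change -0.70, SE 0.091, limma adjusted p = 0.00111). SUPT16H, a subunit of the histone chaperone FACT, went from 12.7 and 11.5 to 20.6 and 20.4 FPKM (log2 fold change 0.72, SE 0.1, limma adjusted p = 0.0014). CASP8AP2, which acts at histone gene loci, went from 5.68 and 3.65 to 8.67 and 8.08 FPKM (log2 fold change 0.75, SE 0.18, limma adjusted p = 0.0118). SYMPK, the scaffold symplekin of 3′ end processing, went from 5.24 and 4.02 to 8.76 and 7.92 FPKM (log2 fold change 0.74, SE 0.14, limma adjusted p = 0.00484).

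Targets of the tumour suppressor p53 were mostly lower, as 3 of 31 measured members were called higher and 18 lower, with a median of -0.53. CDKN1A (chr6:36676460-36687339), the cyclin-dependent kinase inhibitor p21, was at 61.1 and 61.02 FPKM in interphase and 15.7 and 14.6 FPKM in mitosis (log2 fold change -1.94, SE 0.092, limma adjusted p = 3.83e-05). BBC3, the pro-apoptotic protein PUMA, was at 2.93 and 2.66 FPKM in interphase and 0.433 and 0.205 FPKM in mitosis (log2 fold change -1.53, SE 0.12, limma adjusted p = 0.000196). SESN2, the stress sensor sestrin 2, went from 3.93 and 2.84 to 0.997 and 0.994 FPKM (log2 fold change -1.13, SE 0.14, limma adjusted p = 0.000956). MDM2, the ubiquitin ligase that degrades p53, was called higher, at 31.4 and 35.6 FPKM in interphase and 45.7 and 48.95 FPKM in mitosis (log2 fold change 0.49, SE 0.1, limma adjusted p = 0.00747), a call lost without interphase replicate 1 (limma adjusted p = 0.0503) and with length and GC trends removed (0.731). FAS, a death receptor whose interval overlaps another gene, rose from 12.97 and 12.7 to 28.6 and 27.5 FPKM (log2 fold change 1.07, SE 0.092, limma adjusted p = 0.000287).

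The BCL2 family, which sets the threshold for mitochondrial apoptosis, had its deepest falls among BH3-only members. Of the list, 2 of 16 measured members were called higher and 9 lower, with a median of -0.35. BMF (chr15:40087890-40108892) was at 14.2 and 12.4 FPKM in interphase and 0.174 and 0.15 FPKM in mitosis (log2 fold change -3.62, SE 0.12, limma adjusted p = 7.09e-06), and no library of either group came near the other. BCL2L11, the activator BIM, went from 3.81 and 4.76 to 0.766 and 0.681 FPKM (log2 fold change -1.61, SE 0.13, limma adjusted p = 0.000196). MCL1, the short-lived anti-apoptotic member, was at 57.2 and 52.7 FPKM in interphase and 40.7 and 36.9 FPKM in mitosis (log2 fold change -0.49, SE 0.1, limma adjusted p = 0.00658), in an interval shared with another gene. BCL2L12 was called higher (from 3.94 and 4.9 to 8.78 and 6.6 FPKM; log2 fold change 0.68, SE 0.16, limma adjusted p = 0.0117), also in a shared interval, and the call was lost without interphase replicate 1 (limma adjusted p = 0.0605).

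Immediate early genes, short-lived transcripts of growth factor and stress signalling, were lower in 19 of 31 members and higher in 2, with a median of -0.55. JUND (chr19:18279760-18281622), an AP-1 subunit, was at 64.3 and 59.3 FPKM in interphase and 6.99 and 6.06 FPKM in mitosis (log2 fold change -3.06, SE 0.11, limma adjusted p = 1.07e-05). IER3 was at 45.5 and 49.5 FPKM in interphase and 9.1 and 7.8 FPKM in mitosis (log2 fold change -2.36, SE 0.11, limma adjusted p = 3.73e-05). DUSP1, a phosphatase that switches off MAP kinases, was at 23.1 and 17.9 FPKM in interphase and 3.85 and 2.752 FPKM in mitosis (log2 fold change -2.32, SE 0.17, limma adjusted p = 0.000172). JUN and MYC fell less. JUN went from 29.1 and 27.2 to 19.7 and 17.8 FPKM (log2 fold change -0.56, SE 0.1, limma adjusted p = 0.00375). MYC went from 19.9 and 21.05 to 14.2 and 13.2 FPKM (log2 fold change -0.55, SE 0.098, limma adjusted p = 0.00367). EGR1 was low throughout, at 0.652 and 0.777 FPKM in interphase and 0.246 and 0.374 FPKM in mitosis (log2 fold change -0.39, SE 0.092, limma adjusted p = 0.0114), and its call was lost without mitosis replicate 1 (limma adjusted p = 0.0599) or interphase replicate 2 (0.0531). FOS was under 1 FPKM in every library (0.339 and 0.279 FPKM in interphase and 0.242 and 0.577 FPKM in mitosis), did not pass the test (limma adjusted p = 0.532), and its groups overlapped. HBEGF, an EGF receptor ligand, rose from 11.9 and 9.53 to 26.9 and 19.2 FPKM (log2 fold change 1.03, SE 0.18, limma adjusted p = 0.00323). With the pseudocount at 0.1 FPKM the list's median was -0.89 and the same number, 19, was called lower.

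**Figure D4:**
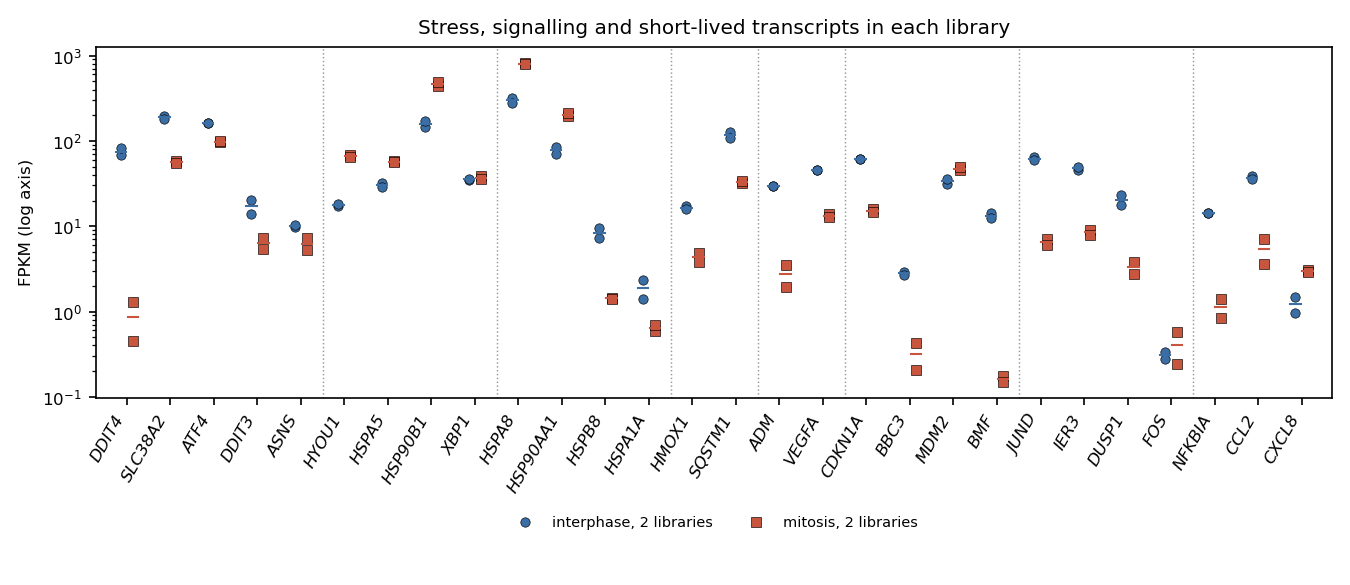
FPKM of 28 stress, signalling and short-lived transcripts in each library on a log axis, with interphase as blue circles, mitosis as red squares and a short line at each group's mean; dotted lines separate the pathways. DDIT4 and BMF drop furthest, the endoplasmic reticulum chaperones HYOU1 and HSP90B1 rise, and FOS overlaps between the groups. Of the heat shock genes, HSPA8 and HSP90AA1 rise while HSPB8 and HSPA1A fall.

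Genes of the ATF4 and amino acid response were mostly lower, as 4 of 34 measured members were called higher and 18 lower, with a median of -0.42. DDIT4 (chr10:72273920-72276036), the mTORC1 inhibitor REDD1, had the deepest fall of any protein-coding gene outside the histones, at 67.8 and 82.1 FPKM in interphase and 0.453 and 1.29 FPKM in mitosis (log2 fold change -5.37, SE 0.22, limma adjusted p = 2.18e-05). ATF4 itself was at 161 and 164 FPKM in interphase and 96.8 and 98.7 FPKM in mitosis (log2 fold change -0.73, SE 0.098, limma adjusted p = 0.00125). DDIT3, the factor CHOP, was at 20.2 and 13.9 FPKM in interphase and 5.36 and 7.23 FPKM in mitosis (log2 fold change -1.30, SE 0.2, limma adjusted p = 0.00205), with an interval that overlaps another gene. SLC38A2, an amino acid transporter, went from 196 and 180.4 to 57.8 and 54.9 FPKM (log2 fold change -1.72, SE 0.1, limma adjusted p = 8.18e-05). NUPR1, a stress-induced chromatin protein, went from 92.6 and 89.8 to 27.5 and 20.9 FPKM (log2 fold change -1.88, SE 0.14, limma adjusted p = 0.000156). ASNS, asparagine synthetase, went from 9.78 and 10.4 to 5.26 and 7.23 FPKM (log2 fold change -0.63, SE 0.15, limma adjusted p = 0.0117), a call lost without interphase replicate 2 (limma adjusted p = 0.053). ATF3 was low in both groups (from 1.03 and 0.667 to 0.0684 and 0.245 FPKM; log2 fold change -0.67, SE 0.13, limma adjusted p = 0.00439). ALDH18A1, an enzyme of proline synthesis, rose from 24.8 and 23.4 to 52.7 and 50.3 FPKM (log2 fold change 1.07, SE 0.092, limma adjusted p = 0.000291).

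The unfolded protein response of the endoplasmic reticulum moved the other way, as 15 of 25 measured members were called higher and 4 lower, with a median of 0.50. The members that rose furthest are chaperones and degradation factors of the reticulum. HYOU1 (chr11:119044189-119057202), a chaperone of the HSP70 family, was at 17.2 and 18.1 FPKM in interphase and 68.7 and 65.5 FPKM in mitosis (log2 fold change 1.87, SE 0.092, limma adjusted p = 4.11e-05). HSP90B1, the chaperone GRP94, was at 144 and 173 FPKM in interphase and 435 and 495 FPKM in mitosis (log2 fold change 1.55, SE 0.14, limma adjusted p = 0.000364). HSPA5, the chaperone BiP, was at 32.4 and 29.1 FPKM in interphase and 57.4 and 56.4 FPKM in mitosis (log2 fold change 0.87, SE 0.097, limma adjusted p = 0.000663). SEL1L, an adaptor of ER-associated degradation, went from 11.4 and 11.2 to 31.2 and 27.9 FPKM (log2 fold change 1.31, SE 0.1, limma adjusted p = 0.000194). XBP1, the transcription factor of the IRE1 branch, was at 34.8 and 35.7 FPKM in interphase and 38.3 and 36.02 FPKM in mitosis and did not pass the test (limma adjusted p = 0.535). WFS1, a membrane protein of the reticulum, fell from 6.4 and 4.92 to 2.14 and 2.55 FPKM (log2 fold change -0.99, SE 0.15, limma adjusted p = 0.00187).

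Cytosolic heat shock genes had shares near those of all genes, as 8 of 26 measured members were called higher and 6 lower, with a median of 0.09. Without interphase replicate 1, 3 were called lower. Of the genes named below, HSPA8, HSP90AA1, HSPH1 and HSPB8 had the largest called changes of that list in their direction. HSPA1A and DNAJB1 are index genes, named whatever their values. HSPA8, the constitutive HSC70, was at 315 and 279.7 FPKM in interphase and 819 and 789 FPKM in mitosis (log2 fold change 1.43, SE 0.14, limma adjusted p = 0.000473) in an interval that holds snoRNA genes as well. HSP90AA1 was at 85.5 and 69.6 FPKM in interphase and 193 and 211 FPKM in mitosis (log2 fold change 1.38, SE 0.13, limma adjusted p = 0.000391). HSPH1 went from 17.3 and 16.3 to 36.97 and 40.4 FPKM (log2 fold change 1.15, SE 0.098, limma adjusted p = 0.000272). The inducible HSPA1A, which has the near-identical copy HSPA1B, was at 2.37 and 1.4 FPKM in interphase and 0.588 and 0.701 FPKM in mitosis (log2 fold change -0.79, SE 0.16, limma adjusted p = 0.00683). The small heat shock gene HSPB8 fell from 9.53 and 7.19 to 1.44 and 1.41 FPKM (log2 fold change -1.94, SE 0.15, limma adjusted p = 0.000181). DNAJB1, a co-chaperone and common readout of heat shock factor, was at 45.2 and 51.8 FPKM in interphase and 44.2 and 39.9 FPKM in mitosis and did not pass the test (limma adjusted p = 0.166).

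Genes of oxidative stress defence were mostly lower. In the list 2 of 28 measured members were called higher and 18 lower, with a median of -0.61 that was -0.40 with length and GC trends removed. HMOX1, haem oxygenase, was at 17.2 and 15.7 FPKM in interphase and 4.9 and 3.83 FPKM in mitosis (log2 fold change -1.71, SE 0.13, limma adjusted p = 0.000196). TKT, transketolase of the pentose phosphate pathway, was at 181 and 179 FPKM in interphase and 39.9 and 45.4 FPKM in mitosis (log2 fold change -2.05, SE 0.11, limma adjusted p = 4.63e-05). SQSTM1, the autophagy receptor p62, whose interval overlaps another gene, went from 127 and 107 to 32.5 and 33.8 FPKM (log2 fold change -1.78, SE 0.11, limma adjusted p = 0.0001). TXNRD1, thioredoxin reductase, was called higher (from 168 and 159 to 235 and 219 FPKM; log2 fold change 0.47, SE 0.11, limma adjusted p = 0.0113) in an overlapping interval, a call lost without interphase replicate 2 (limma adjusted p = 0.0731).

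In hypoxia and glycolysis 4 of 31 measured members were called higher and 14 lower, with a median of -0.30 that was -0.20 with length and GC trends removed. Without interphase replicate 1, 2 were called higher. ADM (chr11:10304680-10307397), the vasodilator peptide adrenomedullin, was at 29.4 and 29.6 FPKM in interphase and 1.93 and 3.53 FPKM in mitosis (log2 fold change -3.07, SE 0.2, limma adjusted p = 0.00011). VEGFA, the angiogenic growth factor, was at 45.6 and 45.4 FPKM in interphase and 13.8 and 12.7 FPKM in mitosis (log2 fold change -1.71, SE 0.094, limma adjusted p = 6.06e-05). MXI1, a MYC antagonist, went from 10.1 and 11.9 to 1.52 and 1.47 FPKM (log2 fold change -2.26, SE 0.12, limma adjusted p = 5.84e-05). GAPDH, the glycolytic enzyme often used as a reference, was at 1372 and 1626 FPKM in interphase and 1053 and 1277 FPKM in mitosis and did not pass the test (limma adjusted p = 0.2). KDM3A, a histone demethylase, was called higher (from 4.29 and 5.45 to 7.45 and 8.88 FPKM; log2 fold change 0.65, SE 0.15, limma adjusted p = 0.00923), a call lost without interphase replicate 1 (limma adjusted p = 0.0521) and with length and GC trends removed (0.0503).

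Inflammatory genes held both large falls and rises. For NF-kB targets and cytokines 4 of 19 measured members were called higher and 7 lower, with a median of -0.05. Without mitosis replicate 2, 7 were called higher and 7 lower, and with a mean of at least 1 FPKM the median of the 13 genes left was -0.38. NFKBIA (chr14:35401511-35404749), the inhibitor that resets NF-kB, was at 14.3 and 14.2 FPKM in interphase and 0.851 and 1.39 FPKM in mitosis (log2 fold change -2.86, SE 0.15, limma adjusted p = 4.77e-05). CCL2, a monocyte chemokine, was at 38.5 and 35.7 FPKM in interphase and 7.11 and 3.56 FPKM in mitosis (log2 fold change -2.65, SE 0.25, limma adjusted p = 0.000372). IL1B, interleukin 1 beta, went from 10.6 and 9.53 to 0.491 and 1.31 FPKM (log2 fold change -2.57, SE 0.21, limma adjusted p = 0.000229). CXCL8, interleukin 8, was at 0.97 and 1.47 FPKM in interphase and 3.11 and 2.87 FPKM in mitosis (log2 fold change 0.85, SE 0.14, limma adjusted p = 0.00245). IL11, a cytokine of the IL-6 family, was at 8.44 and 7.62 FPKM in interphase and 46.8 and 24.3 FPKM in mitosis (log2 fold change 1.95, SE 0.27, limma adjusted p = 0.00139). The 2 mitotic libraries of IL11 and of CCL2 lay well apart, yet on the same side of interphase.

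Interferon-stimulated genes were called lower more often than higher. Of the list, 2 of 29 measured members were called higher and 14 lower, with a median of -0.34, and 13 did not pass the test. IFIT2, an inhibitor of viral translation, went from 2.98 and 2.55 to 0.146 and 0.102 FPKM (log2 fold change -1.74, SE 0.1, limma adjusted p = 7.6e-05). ISG15, a ubiquitin-like modifier, was at 17.8 and 14.8 FPKM in interphase and 4.24 and 4.26 FPKM in mitosis (log2 fold change -1.71, SE 0.12, limma adjusted p = 0.000153). IFI35 went from 11.1 and 7.53 to 3.75 and 3.02 FPKM (log2 fold change -1.22, SE 0.19, limma adjusted p = 0.00204).

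Sterol and fatty acid synthesis had the lowest median outside the histones, -0.74, as 6 of 32 measured members were called higher and 20 lower. With genes in overlapping intervals left out, 13 of 25 were lower and the median was -0.33. HMGCS1, which makes the precursor of mevalonate, was at 16.9 and 13.1 FPKM in interphase and 6.59 and 4.86 FPKM in mitosis (log2 fold change -1.25, SE 0.17, limma adjusted p = 0.00132). MVD, the last step to isopentenyl diphosphate, went from 27.4 and 18.2 to 6.03 and 5.24 FPKM (log2 fold change -1.82, SE 0.19, limma adjusted p = 0.000503). SCD, the stearoyl-CoA desaturase, went from 299 and 321 to 79.8 and 95.8 FPKM (log2 fold change -1.81, SE 0.13, limma adjusted p = 0.000147). TM7SF2, a sterol reductase in an overlapping interval, went from 14.3 and 11.5 to 1.41 and 1.64 FPKM (log2 fold change -2.45, SE 0.14, limma adjusted p = 7.06e-05). ELOVL6, a fatty acid elongase, rose from 16.1 and 16.1 to 26.9 and 31.7 FPKM (log2 fold change 0.82, SE 0.11, limma adjusted p = 0.00121).

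Targets of YAP and of TGF-beta, read as transcripts of spread and contractile cells, were called higher in 7 and lower in 14 of 29, with a median of -0.36. The number called higher was 4 without interphase replicate 1 and 4 with length and GC trends removed. CTGF (chr6:131948176-131951373), a matricellular protein, was at 38.8 and 31.5 FPKM in interphase and 10.8 and 5.05 FPKM in mitosis (log2 fold change -2.09, SE 0.29, limma adjusted p = 0.00139). CYR61, its close relative and a target of the same pathway, was at 70.8 and 61.8 FPKM in interphase and 59.6 and 42.2 FPKM in mitosis and did not pass the test (limma adjusted p = 0.0911), although it did with the replicate block (0.0181), after median centring (0.0432) and without mitosis replicate 1 (0.00906). GADD45B went from 22.1 and 14.8 to 5.49 and 4.52 FPKM (log2 fold change -1.68, SE 0.19, limma adjusted p = 0.000685). LATS2, a kinase that restrains YAP, rose from 4.99 and 5.53 to 13.8 and 10.3 FPKM (log2 fold change 1.05, SE 0.15, limma adjusted p = 0.00162). ACTA2, smooth muscle actin, which shares its interval with another gene, was at 93.1 and 68.7 FPKM in interphase and 48.4 and 20.7 FPKM in mitosis (log2 fold change -1.31, SE 0.36, limma adjusted p = 0.0198), and its call was lost without interphase replicate 1 (limma adjusted p = 0.0715) and with length and GC trends removed (0.0501).

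For adhesion and matrix genes 23 of 38 measured members were called higher and 3 lower, with a median of 0.44. With length and GC trends removed 18 were called higher and 10 lower, at a median of 0.32. The number called lower was 6 with the replicate block and 6 after median centring. COL5A2, a fibrillar collagen chain, went from 2.62 and 3.04 to 12.2 and 10.4 FPKM (log2 fold change 1.69, SE 0.13, limma adjusted p = 0.000185). ACTN4, an actinin that crosslinks actin, was at 98.6 and 70.1 FPKM in interphase and 255 and 211 FPKM in mitosis (log2 fold change 1.47, SE 0.18, limma adjusted p = 0.000934). TLN1, the integrin activator talin, went from 27.2 and 26.6 to 98.03 and 80.4 FPKM (log2 fold change 1.69, SE 0.12, limma adjusted p = 0.000144) in an overlapping interval. ITGB5, an integrin chain, fell from 116 and 117 to 67.7 and 68.7 FPKM (log2 fold change -0.76, SE 0.093, limma adjusted p = 0.000895). For actin and contractility 8 of 27 measured members (29.6%) were called higher, near the 28.0% of all genes. Another 4 (14.8%) were called lower, against 26.9% of all genes. The median of 0.10 was -0.05 without mitosis replicate 1 and 0.26 without mitosis replicate 2. Without interphase replicate 1 or interphase replicate 2, 2 were called lower. The membrane linkers moesin and ezrin rose. MSN went from 53.1 and 42.9 to 138 and 123 FPKM (log2 fold change 1.43, SE 0.13, limma adjusted p = 0.000349). EZR went from 73.9 and 58.4 to 173 and 156 FPKM (log2 fold change 1.31, SE 0.14, limma adjusted p = 0.000542). TPM3, a tropomyosin, rose from 75.3 and 67.4 to 151 and 131 FPKM (log2 fold change 0.97, SE 0.12, limma adjusted p = 0.000886). RHOB, a short-lived transcript of a small GTPase, fell from 72.2 and 71.2 to 31.5 and 27.3 FPKM (log2 fold change -1.26, SE 0.1, limma adjusted p = 0.000249). ACTB, beta-actin, was at 1195 and 968 FPKM in interphase and 1884 and 1656 FPKM in mitosis (log2 fold change 0.72, SE 0.22, limma adjusted p = 0.0306), a call lost after quantile normalization (limma adjusted p = 0.077) and without interphase replicate 1 (0.0621), mitosis replicate 1 (0.0772) or interphase replicate 2 (0.206).

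The nuclear envelope and pore, which come apart and re-form in mitosis, had 33 of 49 genes called higher and 0 lower, with a median of 0.61 and a median level of 16.4 and 15.2 FPKM in the interphase libraries and 28.3 and 29.6 FPKM in the mitotic ones. Of 29 nucleoporins 22 were called higher. NUP205 and NUP188 are paired scaffolds of the inner ring. NUP205 was at 7.43 and 8.24 FPKM in interphase and 34.6 and 33.9 FPKM in mitosis (log2 fold change 2.00, SE 0.099, limma adjusted p = 4.25e-05). NUP188, in an overlapping interval, was at 5.78 and 5.11 FPKM in interphase and 25.1 and 24.5 FPKM in mitosis (log2 fold change 2.00, SE 0.11, limma adjusted p = 5.05e-05). NUP35, a further inner ring protein, went from 8.94 and 9.34 to 34.5 and 36.5 FPKM (log2 fold change 1.85, SE 0.095, limma adjusted p = 4.7e-05).

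Nuclear-encoded subunits of oxidative phosphorylation were lower with little spread between members. Of 75 genes 62 were called lower and 2 higher, at a median of -0.67 and a median level of 77.5 and 83.2 FPKM in the interphase libraries and 48.7 and 49.8 FPKM in the mitotic ones. By complex, 31 of 38 genes of complex I, 2 of 4 of complex II, 8 of 9 of complex III, 10 of 10 of complex IV and 11 of 14 of ATP synthase were called lower. ATP5G2, a copy of the ATP synthase c subunit, was at 167 and 173 FPKM in interphase and 65.6 and 78 FPKM in mitosis (log2 fold change -1.24, SE 0.12, limma adjusted p = 0.000395). NDUFA13 and NDUFB11, accessory subunits of complex I, had log2 fold changes of -1.16 and -1.12. NDUFS1, the largest subunit of that complex, was called higher, at 27.9 and 23.98 FPKM in interphase and 52.01 and 49.8 FPKM in mitosis (log2 fold change 0.95, SE 0.11, limma adjusted p = 0.000669).

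Transcript length moved with the change across genes, so values with this trend removed are given as well. In 5 equal bins of genes by the length of the longest annotated transcript, the median change was -0.28, -0.10, 0.01, 0.10 and 0.20 from the shortest (up to 2068 nt) to the longest (from 5921 nt). Across 13132 genes, Spearman's rank correlation with log2 fold change was 0.28 for length and -0.23 for GC content, a description over genes that share libraries. With these trends removed, the median of oxidative phosphorylation was -0.50 and 56 of its genes were called lower, and the medians of the mitotic lists ranged from 0.88 to 1.70.

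Ribosomal protein genes were more often lower than higher. For cytosolic ribosomal proteins 3 of 80 measured members were called higher and 44 lower, with a median of -0.45. The number called lower was 18 without interphase replicate 2, and the median was -0.28 with length and GC trends removed. For mitochondrial ribosomal proteins 2 of 77 measured members were called higher and 42 lower, with a median of -0.37, which was -0.14 with 26 called lower once those trends were removed. MRPL53 went from 58.1 and 60.8 to 23.9 and 32.2 FPKM (log2 fold change -1.07, SE 0.14, limma adjusted p = 0.00126). MRPS34 went from 65.9 and 68.2 to 34.4 and 29.7 FPKM (log2 fold change -1.05, SE 0.11, limma adjusted p = 0.000473). MRPL17 went from 32.8 and 31.8 to 16.3 and 17.4 FPKM (log2 fold change -0.90, SE 0.094, limma adjusted p = 0.000513). All 3 fell by close to 1 on the log2 scale. MRPL42 was called higher (from 36.2 and 34.8 to 44.6 and 54.99 FPKM; log2 fold change 0.47, SE 0.12, limma adjusted p = 0.0156), a call lost without interphase replicate 2 (limma adjusted p = 0.0669), without mitosis replicate 2 (0.0534) and with length and GC trends removed (0.397).

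Among cytosolic ribosomal proteins, RPL41, the smallest of them, fell from 18.9 and 24.9 to 4.06 and 4.06 FPKM (log2 fold change -2.17, SE 0.14, limma adjusted p = 0.000116). RPL38, a protein of the large subunit, was at 1170.2 and 1409 FPKM in interphase and 520.4 and 644 FPKM in mitosis (log2 fold change -1.15, SE 0.2, limma adjusted p = 0.00327). RPL13A, which hosts snoRNAs in its introns, went from 559 and 619.9 to 212 and 201 FPKM (log2 fold change -1.51, SE 0.13, limma adjusted p = 0.000291). RPL36A, in an overlapping interval, rose from 2.99 and 4.97 to 14.9 and 16.6 FPKM (log2 fold change 1.78, SE 0.19, limma adjusted p = 0.000589). Both RPL41 and RPL36A lay far under the list's median level, which was 342 and 404 FPKM in the interphase libraries. The reason was not tested. Many ribosomal protein genes have processed pseudogenes that could take part of their reads.

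Ribosome biogenesis factors were mostly higher. Of that list 25 of 36 measured members were called higher and 3 lower, with a median of 0.57. DDX21, a nucleolar helicase, was at 34.7 and 29.96 FPKM in interphase and 109 and 103 FPKM in mitosis (log2 fold change 1.68, SE 0.11, limma adjusted p = 0.000101). NOP58, a core protein of box C/D snoRNPs, went from 19.3 and 18.7 to 60.3 and 60.4 FPKM (log2 fold change 1.62, SE 0.089, limma adjusted p = 6.03e-05). UTP15, of the small subunit processome, went from 4.04 and 3.14 to 14.6 and 15.1 FPKM (log2 fold change 1.80, SE 0.13, limma adjusted p = 0.000156). NOP10, a small protein of H/ACA snoRNPs, fell from 168 and 177 to 67.7 and 82.6 FPKM (log2 fold change -1.20, SE 0.12, limma adjusted p = 0.000524).

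Translation factors and the proteasome had shares close to those of all genes. For translation factors 11 of 45 measured members were called higher and 16 lower, with a median of -0.05. EEF2, the translocation factor, went from 533 and 612 to 321 and 331 FPKM (log2 fold change -0.81, SE 0.14, limma adjusted p = 0.00347). EIF4B, a cofactor of the cap-binding helicase, went from 97.9 and 112 to 47.6 and 54.9 FPKM (log2 fold change -1.02, SE 0.12, limma adjusted p = 0.000747). EIF3K, a subunit of the EIF3 scaffold, went from 101.18 and 100.63 to 58.3 and 57.2 FPKM (log2 fold change -0.80, SE 0.092, limma adjusted p = 0.000719). EIF5B, which joins the subunits, rose from 4.79 and 4.36 to 12.8 and 10.6 FPKM (log2 fold change 1.18, SE 0.13, limma adjusted p = 0.000571). For the proteasome 9 of 41 measured members were called higher and 13 lower, against 11 and 9 with length and GC trends removed. Its core particle had 8 of 14 genes called lower and 0 higher, while the regulatory particle had 4 of 20 lower and 7 higher. PSMB6, a catalytic core subunit, went from 124 and 115 to 70.8 and 66.3 FPKM (log2 fold change -0.79, SE 0.1, limma adjusted p = 0.00104). PSMD3, of the regulatory lid, went from 37.2 and 38.2 to 19.1 and 23.3 FPKM (log2 fold change -0.81, SE 0.12, limma adjusted p = 0.00157). PSME1, an activator subunit in an overlapping interval, went from 104 and 92.4 to 55.4 and 53.4 FPKM (log2 fold change -0.84, SE 0.1, limma adjusted p = 0.000906). PSME4, the activator PA200, rose from 8.82 and 9.4 to 26.1 and 23.3 FPKM (log2 fold change 1.34, SE 0.1, limma adjusted p = 0.000198).

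Lysosome and autophagy genes were mostly lower, as 5 of 36 measured members were called higher and 21 lower, with a median of -0.49. The number called higher was 3 without any 1 of the 4 libraries. GABARAPL1 (chr12:10212458-10223130), a ubiquitin-like protein of autophagosomes, was at 9.29 and 11.3 FPKM in interphase and 0.564 and 1.01 FPKM in mitosis (log2 fold change -2.67, SE 0.16, limma adjusted p = 8.77e-05). ATP6V0D1, a subunit of the proton pump, went from 38.6 and 30 to 13.4 and 12.3 FPKM (log2 fold change -1.34, SE 0.14, limma adjusted p = 0.000484). FNIP1, a folliculin partner, rose from 10.4 and 11.7 to 26.04 and 24.4 FPKM (log2 fold change 1.12, SE 0.11, limma adjusted p = 0.000372). For the primary cilium, which is taken down before division, 8 of 47 measured members were called higher and 20 lower, with a median of -0.17; 13 were called lower without mitosis replicate 1 and 13 without interphase replicate 2, and 5 were called higher without either interphase replicate. IFT27, of the intraflagellar transport complex, went from 5.47 and 6.09 to 2.53 and 2.8 FPKM (log2 fold change -0.89, SE 0.12, limma adjusted p = 0.00119). BBS12, a chaperonin-like Bardet-Biedl protein, went from 4.01 and 3.61 to 1.36 and 1.4 FPKM (log2 fold change -1.01, SE 0.11, limma adjusted p = 0.000573). DYNC2LI1, of the retrograde dynein, went from 9.8 and 9.81 to 4.26 and 5.48 FPKM (log2 fold change -0.89, SE 0.13, limma adjusted p = 0.00186). RPGRIP1L, of the transition zone, rose from 1.94 and 1.59 to 5.27 and 5.998 FPKM (log2 fold change 1.26, SE 0.13, limma adjusted p = 0.000461).

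Circadian genes were called lower in 10 and higher in 2 of 20, with a median of -0.27. With the pseudocount at 0.1 FPKM the median was -0.71. DBP, an output factor of the clock, was at 3.04 and 3.81 FPKM in interphase and 0.0728 and 0.174 FPKM in mitosis (log2 fold change -1.97, SE 0.12, limma adjusted p = 8.78e-05). BHLHE41, a repressor of the loop, went from 9.46 and 11.05 to 0.742 and 2.05 FPKM (log2 fold change -2.28, SE 0.25, limma adjusted p = 0.00063). BHLHE40, its paralog in an overlapping interval, went from 7.7 and 8.43 to 3.64 and 2.54 FPKM (log2 fold change -1.16, SE 0.15, limma adjusted p = 0.00121). ARNTL, the activator BMAL1, moved the other way, at 3.44 and 4.6 FPKM in interphase and 10.2 and 8.33 FPKM in mitosis (log2 fold change 1.04, SE 0.16, limma adjusted p = 0.00199). The time between the 2 harvests cannot be told apart from phase for these genes.

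SnoRNA and scaRNA genes, guides of RNA modification that sit in introns, were called higher in 128 and lower in 6 of 171, with a median of 1.46, a value of 1.83 in the libraries numbered 1 and of 1.09 in those numbered 2. Box C/D snoRNAs had 50 of 67 called higher and box H/ACA snoRNAs 68 of 82. In 150 of the 171 the interval overlaps another gene, mostly the host, so their values are uncertain. Of the 21 without an overlap, 12 were called higher and 4 lower. Without mitosis replicate 1, 10 of all 171 were called lower. With length and GC trends removed 57 of 162 were called higher and 33 lower, at a median of 0.26. SNORD21 went from 9.84 and 5.9 to 234 and 191 FPKM (log2 fold change 4.62, SE 0.21, limma adjusted p = 3.73e-05). SNORD99 went from 41.5 and 12.4 to 1167 and 956 FPKM (log2 fold change 5.47, SE 0.47, limma adjusted p = 0.000291). SNORD110 went from 57.7 and 17.2 to 771 and 786 FPKM (log2 fold change 4.58, SE 0.47, limma adjusted p = 0.000508). The interphase libraries lay far apart in SNORD99 and SNORD110, and less so in SNORD21. SNORD116-27 fell from 61.5 and 30.6 to 11.9 and 18.9 FPKM (log2 fold change -1.47, SE 0.33, limma adjusted p = 0.00947).

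The noncoding hosts of snoRNAs had 11 of 21 genes called lower and 5 higher, at a median of -0.33; 6 were called lower without interphase replicate 2, and 3 higher without interphase replicate 1. With length and GC trends removed 7 were called lower, at a median of -0.14. SNHG19 went from 236 and 240.0 to 46.4 and 31.6 FPKM (log2 fold change -2.60, SE 0.17, limma adjusted p = 0.00012). SNHG9 went from 23.2 and 30.7 to 6.09 and 4.84 FPKM (log2 fold change -2.11, SE 0.16, limma adjusted p = 0.000196), both in overlapping intervals. SNHG12 went from 13.9 and 11.7 to 5.92 and 4.23 FPKM (log2 fold change -1.20, SE 0.16, limma adjusted p = 0.00129) and also shares its interval. SNHG24, in a shared interval too, rose from 6.33 and 5.48 to 10.3 and 14.6 FPKM (log2 fold change 0.94, SE 0.17, limma adjusted p = 0.00392). Of 455 ZNF zinc finger genes, 107 were called higher and 108 lower, shares under the background in both directions. The balance moved with the setting, to 82 higher and 141 lower after median centring, 79 and 134 with length and GC trends removed, and 104 and 73 of 347 at a mean of at least 1 FPKM. ZNF579 fell from 6.32 and 6.05 to 1.29 and 0.789 FPKM (log2 fold change -1.83, SE 0.15, limma adjusted p = 0.000214). ZNF219, in an overlapping interval, fell from 7.85 and 6.39 to 1.8 and 1.88 FPKM (log2 fold change -1.51, SE 0.13, limma adjusted p = 0.000285). ZNF395 fell from 14.6 and 18.4 to 4.75 and 5.76 FPKM (log2 fold change -1.48, SE 0.15, limma adjusted p = 0.000435). ZNF407 rose from 2.92 and 3.06 to 12.8 and 11.4 FPKM (log2 fold change 1.72, SE 0.11, limma adjusted p = 0.000117).

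Outside these lists, the protein-coding genes with the largest changes were PPP1R3C, SERPINB2 and EBLN2. PPP1R3C, a regulator of glycogen synthesis, was at 14.4 and 19.5 FPKM in interphase and 0.528 and 0.46 FPKM in mitosis (log2 fold change -3.57, SE 0.16, limma adjusted p = 2.98e-05). SERPINB2, a plasminogen activator inhibitor, was at 0.156 and 0.141 FPKM in interphase and 12.6 and 7.39 FPKM in mitosis (log2 fold change 3.22, SE 0.22, limma adjusted p = 0.000127). EBLN2, a gene derived from a bornavirus and placed in an interval shared with another gene, was at 1.07 and 0.819 FPKM in interphase and 18 and 18.9 FPKM in mitosis (log2 fold change 3.33, SE 0.12, limma adjusted p = 1.2e-05).

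The lncRNA table, made on build hg19 with 1321 features that carry identifiers but no gene names in the file, gave few calls in the fit of 4 libraries without a replicate block. At the same threshold 2 features (0.151%) were called higher and 1 (0.0757%) lower, while 357 (27.0%) had an unadjusted p below 0.05. Replicates differed far more than in the gene table, with an SD of the log2 difference of 1.12 in interphase and 1.16 in mitosis, against 0.21 and 0.23. The sign of the change differed between the 2 same-numbered pairs in 28.3% of the features, against 14.4% of genes. On the same 4 libraries the fit with a replicate block called 157 features higher and 176 lower, and with all 8 libraries in the fit 91 were called higher and 70 lower. The number of lncRNA calls thus depended on the fit. On simulated lncRNA data the fit without a block recovered 1% of changes of 1 and 10% of changes of 2 on the log2 scale. The simulated noise was drawn independently for each library, while the real libraries numbered alike deviated together (correlation 0.55). These rates are thus only a rough guide. At such rates, few calls do not show that few features changed.

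The feature XLOC_002583 (hg19 chr11:65190244-65278499) spans 88256 bases and was at 5882 and 5688 FPKM in interphase and 34154 and 32798 FPKM in mitosis (log2 fold change 2.53, SE 0.17, limma adjusted p = 0.0489). Its interval overlaps another feature of the table. XLOC_006569 (hg19 chr17:58160695-58166013) was at 299.8 and 223 FPKM in interphase and 11.6 and 10.2 FPKM in mitosis (log2 fold change -4.45, SE 0.28, limma adjusted p = 0.0489). In both, the 2 groups lay several times farther apart than the replicates, yet neither call held without 1 of the 4 libraries, since no feature of the table was called in any of those 4 fits.

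**Figure D5:**
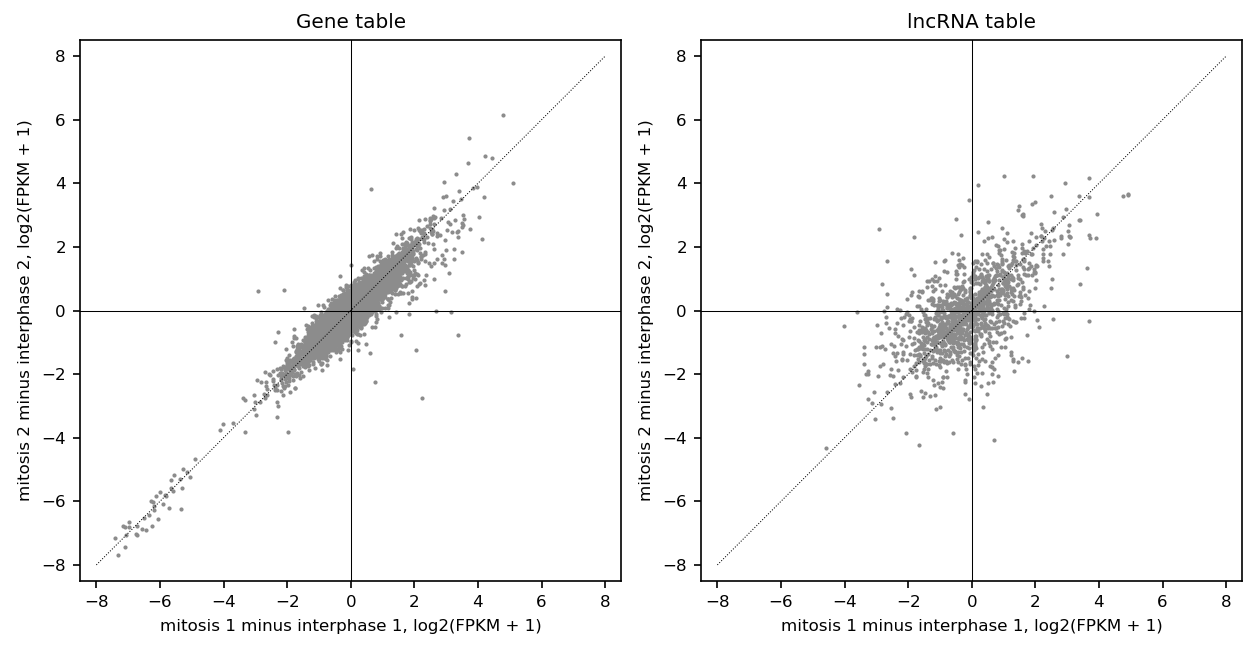
Difference between mitosis and interphase in log2(FPKM + 1) for the libraries numbered 1 (x axis) and numbered 2 (y axis), with a point for each of the 13471 genes (left) and 1321 lncRNA features (right) and a dotted line of equal difference. The genes lie along the line, with 14.4% of opposite sign, while the lncRNA features scatter widely, with 28.3% of opposite sign.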

How the data were processed

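RNA of hTERT-RPE1 cells was sequenced after ribosomal RNA depletion with strand-specific libraries, per the labels' protocols. The authors deposited FPKM values per gene (13471 genes, hg38) and per lncRNA feature (1321, hg19); the submitters' processing notes list TopHat and StringTie without versions. Ratio columns, quotients of FPKM columns computed by the authors per the file headers, were not used. Total fragments and filters are not given in the sources used here, so counting intervals were not computed. Each table was fitted on its own with limma 3.58.1 (R 4.3.3), with moderated variances and a mean trend, on log2(FPKM + 1) of the 4 libraries without IP, with no filter and Benjamini-Hochberg adjustment over the table. FPKM is not a count, so no count model was used. Members and gene lists were chosen with earlier results of these data known, and subgroups by symbol after seeing them. The text names, for each list, the 3 called members with the largest change in the direction with more calls and the 1 with the largest change the other way. It also names index genes of the pathways whatever their values, the 5 protein-coding genes outside the histones with the largest calls in each direction, and at most 2 lncRNA features in each direction. The fit was tested on simulated data with changes of 1 and 2 on the log2 scale and noise drawn independently for each library. It recovered 97% and 100% of them for the gene table, but 1% and 10% for the lncRNA table. Gene types, printed gene coordinates, length and GC came from GENCODE 29 (97.5% of genes matched) and promoters from RefSeq. The alternatives were another pseudocount (0.1), a filter at a mean of 1 FPKM, overlapping intervals left out, median centring, quantile normalization, all 8 libraries, a replicate block, each library left out, and removal of length and GC trends, which was chosen after seeing the data. Some items that these rules name are not reported here.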

Additional observations from a re-analysis of the deposited data

How the results depend on the processing

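In the gene table the calls ranged over the alternatives from 3210 to 3895 higher and from 3202 to 4320 lower with all 4 libraries kept and no interval left out, and without each replicate from 2907 to 3433 higher and from 2792 to 3224 lower. Of its 7394 calls, 6843 kept their sign and call with all 8 libraries in the fit, 7323 with the replicate block and 5819 with length and GC trends removed, where 5 were called the other way. That alternative was chosen after seeing the data. Median centring gave 42.6% of calls as higher in place of 51.0%. Libraries numbered alike deviated together little in the gene table (correlation 0.10 between same-numbered libraries) and more in the lncRNA table (0.55), and the labels do not say what a number shares. The replicate block gave 3895 higher and 3855 lower genes, and 157 higher and 176 lower lncRNA features, against 2 and 1 without it. In the lncRNA table, all 8 libraries in the fit gave 91 higher and 70 lower (407 with an unadjusted p below 0.05). A pseudocount of 0.1 gave 1 and 1 (348), a mean of at least 1 FPKM 1 and 1 (342), and median centring (342), quantile normalization (327) and leaving out overlapping intervals (337) gave 0 and 0 in limma. Without each replicate the counts ranged from 0 to 0 in both directions, with 200 to 247 features at an unadjusted p below 0.05. The cause was not tested. Of single named genes, 2 changed sign, neither of them called: FOS was at -0.08 without mitosis replicate 2 and 0.27 without mitosis replicate 1, and XBP1 at -0.01 after median centring. In 34 of 2135 values of named genes under an alternative the call was lost, and in 3 it was gained. The medians of G1/S regulators (0.05), histone supply (0.01), NF-kB targets (-0.05), actin (0.10), the proteasome (-0.08) and translation factors (-0.05) changed sign under 1 or more alternatives, and those of the other lists except ZNF genes (0.00) did not. The number of fragments is unknown, so limits of detection were not computed.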
